A study of Mus musculus with 3 samples.

Results

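Open chromatin at 10 genes that mark endothelium, the cell layer lining blood vessels, was examined in single cells of mouse kidney. The genes were Eng, Tek, Tie1, Kdr, Flt1, Cdh5, Plvap, Emcn, Erg and Pecam1, out of 49939 annotated genes. This list was chosen with earlier results of these data known. All deposited peaks that overlapped a gene body extended by 2 kb on each side were assigned to the gene, which gave 137 of the 250005 regions obtained by merging the peaks of all libraries. The assay, mtscATAC-seq, fixes and permeabilises whole cells and uses a transposase to cut and tag accessible DNA, so that a count is a transposition event in a peak. The old group had 2 libraries of kidney from animals aged 75 weeks, with a load of the mitochondrial glutamate tRNA mutation (trnE) of 75% in old replicate 1 and 80% in old replicate 2. The young group was 1 library from kidney aged 3 weeks with a load of 80%. Every library thus carried the mutation, and no library without it was analysed here. Whether the old libraries came from different animals is not in the labels. A p-value here therefore reflects spread between libraries that may be technical.

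Endothelial cells read their surroundings through 3 receptor systems on this list. Kdr is the main signalling receptor for vascular endothelial growth factor (VEGF), and Flt1 binds the same ligand tightly and limits its supply. Tek is the receptor for the angiopoietins, and Tie1 is its partner receptor. Eng encodes endoglin, a co-receptor for ligands of the BMP and TGF-beta family. Cdh5 (VE-cadherin) and Pecam1 hold endothelial cells together at their junctions, Plvap forms the diaphragms across capillary fenestrae, Emcn encodes the surface sialomucin endomucin, and Erg is an ETS-family transcription factor that maintains endothelial identity. In kidney, such cells line glomerular capillaries, peritubular capillaries and larger vessels, and Pecam1 is known also from leukocytes.

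Start-site sequences are shown for the 5 receptor genes, because the libraries differed in whether a peak lay there. Tie1, Kdr and Flt1 had a start-site peak in every library, Tek in both old libraries, and Eng in old replicate 1. Each sequence is the 250 bases just before the annotated start site, 5′ to 3′ on the gene's strand, from RefSeq on build GRCm38.p6. Capitals mark the letters AGGAAG or CGGAAG, the core of many ETS-factor sites, on either strand. The windows are chr2:32646345-32646594 (plus strand) for Eng, chr4:94739039-94739288 (plus) for Tek, chr4:118489850-118490099 (minus) for Tie1, chr5:75978456-75978705 (minus) for Kdr and chr5:147726012-147726261 (minus) for Flt1.
Eng: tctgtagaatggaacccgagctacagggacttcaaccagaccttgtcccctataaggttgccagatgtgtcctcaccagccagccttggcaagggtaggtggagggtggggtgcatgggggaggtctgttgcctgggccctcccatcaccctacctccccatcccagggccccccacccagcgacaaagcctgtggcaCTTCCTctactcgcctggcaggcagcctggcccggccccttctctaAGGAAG
Tek: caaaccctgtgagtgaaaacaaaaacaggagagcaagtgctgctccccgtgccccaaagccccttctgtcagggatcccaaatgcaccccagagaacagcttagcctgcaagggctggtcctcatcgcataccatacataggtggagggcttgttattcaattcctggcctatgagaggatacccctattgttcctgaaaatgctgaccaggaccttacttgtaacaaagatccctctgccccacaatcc
Tie1: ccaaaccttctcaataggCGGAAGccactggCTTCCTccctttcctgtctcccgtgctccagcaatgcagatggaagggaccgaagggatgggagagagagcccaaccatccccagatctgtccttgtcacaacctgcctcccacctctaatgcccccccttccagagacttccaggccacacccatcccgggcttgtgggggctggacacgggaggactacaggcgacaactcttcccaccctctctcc
Kdr: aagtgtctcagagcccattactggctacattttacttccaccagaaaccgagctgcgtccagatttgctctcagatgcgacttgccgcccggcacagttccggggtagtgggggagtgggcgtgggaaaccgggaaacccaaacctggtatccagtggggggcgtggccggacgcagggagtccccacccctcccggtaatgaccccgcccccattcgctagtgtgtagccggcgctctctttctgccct
Flt1: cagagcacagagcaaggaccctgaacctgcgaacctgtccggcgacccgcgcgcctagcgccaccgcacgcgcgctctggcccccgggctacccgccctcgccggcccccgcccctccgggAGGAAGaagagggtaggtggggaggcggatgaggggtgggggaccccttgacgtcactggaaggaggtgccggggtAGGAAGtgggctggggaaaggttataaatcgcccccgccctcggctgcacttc
The ETS letters occurred 2 times each in the windows of Eng, Tie1 and Flt1 and were not found in those of Tek and Kdr. In 32851 RefSeq promoter windows of the same length, 39.2% held them at least once. The letters GGGCGG (GC box), on either strand, occurred 2 times in the Kdr window and 3 times in that of Flt1, against 32.7% of all windows with at least 1. Letters of a GATA site (AGATAA) were in none of the 5 windows and in 9.99% of all windows. Letters of a SOX site (AACAAT) were found 1 time, in the Tek window, and in 9.42% of all windows. RefSeq sequences were at hand for 7 of the 10 genes, not for Cdh5, Plvap and Pecam1, so distances from a start site are given for those 7 only.

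The libraries held 5656, 4302 and 4440 barcodes for old replicate 1, old replicate 2 and young, and the median per barcode was 16288.5, 13338.5 and 23319.5 counts. After a floor of 1000 counts and removal of likely doublets, 5315, 3950 and 3976 cells remained. Libraries shared between 28 and 39 barcode sequences, at most 0.907% of the smaller library of a pair. Old replicate 1 stood apart in its make-up, with 61.8% macrophage or dendritic cell-like and 4.8% proximal tubule-like cells. In old replicate 2, 88.8% of cells were proximal tubule-like, and in the young library 83.7%. Cells were clustered without the regions within 50 kb of the 10 genes, and none of the 10 genes was used to name a class. A single cluster was endothelium-like, with 15 of 16 other endothelial markers raised, and took in 189 cells from old replicate 1 (3.56%), 103 from old replicate 2 (2.61%) and 50 from young kidney (1.26%). Their median depth was 13078, 7568 and 8254 counts per cell in the same order.

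In every library, 9 of the 10 genes were more accessible in endothelium-like than in proximal tubule-like cells, and Emcn was so in old replicate 1 only. This is a description, since the classes come from clusters. Levels are CPM, a class's counts in the peaks of its library scaled to counts per 1000000. In endothelium-like cells of old replicate 1, 9 genes lay between 106 CPM (Tie1) and 340 CPM (Flt1), and Emcn was at 20.9 CPM. In old replicate 2 the same 9 genes lay between 47.8 CPM (Plvap) and 262 CPM (Tek), with Emcn at 2.28 CPM. In the young library they lay between 12.6 CPM (Tek) and 185 CPM (Flt1), with Emcn at 3.14 CPM. In proximal tubule-like cells the highest level of any of the 10 genes was 30.8 CPM, for Flt1 in old replicate 1. Tie1 was the cleanest mark, at 106, 95.6 and 98.9 CPM in endothelium-like cells of old replicate 1, old replicate 2 and young, and at most 3.39 CPM in any other named class of at least 20 cells.

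**Figure D1:**
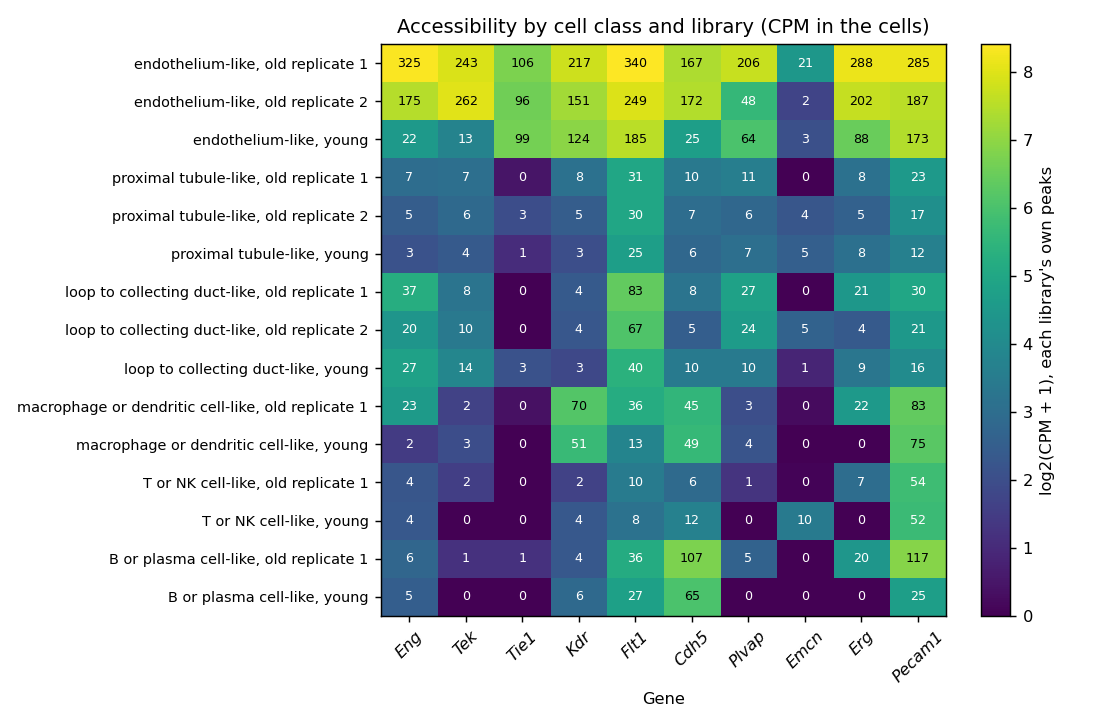
Accessibility of the 10 genes (columns) in each named class and library with at least 20 cells (rows), as CPM in the library's own peaks, with colour on a log2(CPM + 1) scale. The endothelium-like rows hold the highest values for most genes, and the young endothelium-like row is low for Eng (22.0 CPM), Tek (12.6 CPM) and Cdh5 (25.1 CPM).

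Several of the genes were also open in immune-like cells. Pecam1 reached 117 CPM in B or plasma cell-like cells and 83.5 CPM in macrophage or dendritic cell-like cells of old replicate 1. In young macrophage or dendritic cell-like cells it reached 74.9 CPM. Cdh5 had 107 CPM in B or plasma cell-like cells of old replicate 1 and 64.6 CPM in those of the young library, where endothelium-like cells had 25.1 CPM. Kdr had 70.1 CPM in macrophage or dendritic cell-like cells of old replicate 1 and 50.7 CPM in those of the young library. Part of this Kdr signal came from a peak inside the gene, chr5:75933153-75934108 in old replicate 1, with 51.8 CPM in endothelium-like and 34.3 CPM in macrophage or dendritic cell-like cells. The overlapping young peak had 61.2 CPM in endothelium-like and 40.1 CPM in macrophage or dendritic cell-like cells. Flt1 was the member with the most signal in loop to collecting duct-like cells, at 83.0, 67.4 and 40.3 CPM in old replicate 1, old replicate 2 and young. Eng had 36.8, 20.1 and 27.1 CPM in that class, so in the young library its level was above the 22.0 CPM of endothelium-like cells, and Tek in the young library had 13.6 CPM there, against 12.6 CPM in endothelium-like cells. In macrophage or dendritic cell-like cells Eng had 22.9 CPM in old replicate 1, against 1.77 CPM in the young library. These levels use each library's own peaks, so a place without a peak adds no counts. In regions with a peak in every library, Eng had 0.335 and 0 CPM in the same cells. There, young loop to collecting duct-like and endothelium-like cells had 6.55 and 19.2 CPM at Eng and 7.05 and 14.0 CPM at Tek. Young B or plasma cell-like cells had 21.4 CPM at Cdh5 there, against 21.0 CPM in endothelium-like cells. Both Cdh5 regions counted there lie outside the gene body.

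Set per kilobase of gene window, the order of the genes in endothelium-like cells differed between libraries. Plvap was first in old replicate 1 (11.4 CPM per kb) but only sixth in old replicate 2 (2.65 CPM per kb), and its window also overlaps the gene Gtpbp3. Eng was second in old replicate 1 (8.11 CPM per kb), first in old replicate 2 (4.37 CPM per kb) and sixth in the young library (0.549 CPM per kb). Tie1 had 4.69 and 4.22 CPM per kb in the old libraries and, at 4.37, led the young library. Emcn was last in all 3 libraries. The gap of Plvap between the old libraries was wider than that between most neighbours in the order, so ranks among Tie1, Pecam1, Kdr and Cdh5, which lay between 2.87 and 4.69 CPM per kb in the old libraries, are not separated.

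Old and young endothelium-like cells were compared over regions with a peak in every library, since a peak missing from a library is not a count of 0. There were 23 such common regions at 9 of the 10 genes. Emcn had none and was not tested. Of the 9 tested genes, Eng alone passed: it was higher in old endothelium-like cells, by 2.80 ± 0.43 on the log2 scale (SE), a fold of 6.94. The other 8 tested genes did not pass the test, with log2 changes from -0.34 (Kdr) to 1.38 (Tek), which does not show that they were unchanged. Tested were 2 old libraries against 1 young one, by edgeR's quasi-likelihood test on counts summed per library, with Benjamini-Hochberg adjustment over all genes, two-sided.

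Eng had 312 counts (155 CPM of counts in common regions) in old replicate 1 and 83 counts (107 CPM) in old replicate 2, against 11 counts (19.2 CPM) in the young library. Both old values lay above the young one. The members were chosen with earlier results of these data known, so the test of Eng is not a fresh one. The adjusted p was 9.09e-07 (edgeR), the second smallest p of 18408 genes tested, of which 0.31% were called in either direction and 0.174% were higher in old. One of the 9 members tested was therefore called. DESeq2 gave a log2 change of 2.78 with an adjusted p of 0.037. The adjusted p lost the threshold with all merged regions (log2 change 3.63, adjusted p 0.151, edgeR) and with each cell thinned to 3000 counts (3.83, adjusted p 0.0653, edgeR). Under these settings 0 genes of the class were called, with 1394 and 962 under an unadjusted p of 0.05. With all merged regions, a region adds no counts in a library without a peak there. Because the young group is 1 library, an exact permutation of the labels could not give a p below 0.333.

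**Figure D2:**
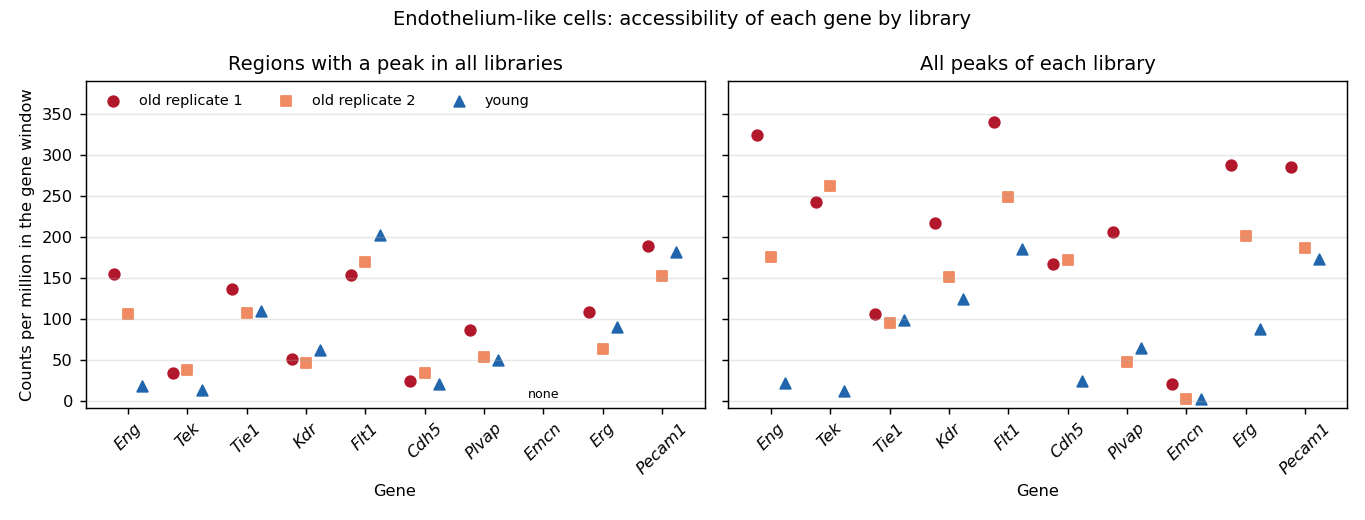
CPM of each gene in endothelium-like cells, with 1 point per library, over regions with a peak in all libraries (left) and over all peaks of each library (right). On the left, Eng is at 155 and 107 CPM in the old libraries and 19.2 CPM in the young library, while Tie1, Erg and Pecam1 have young values within the range of the old ones.

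Of the angiopoietin receptors, Tek had 34.8 and 38.5 CPM in old replicates 1 and 2, against 14.0 CPM in the young library, from 70, 30 and 8 counts. Both old values were above the young one, but the log2 change of 1.38 ± 0.62 (SE) did not pass (unadjusted p = 0.0274, adjusted p = 0.444, edgeR). After thinning, it was -0.02. Its partner Tie1 had 137 and 108 CPM in the old libraries, against 110 CPM in the young library, with a log2 change of 0.18 ± 0.30. The young Tie1 value lay between the old ones.

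The VEGF receptors had slightly higher values in the young library. Kdr had 51.7 and 46.2 CPM in the old libraries, against 63.0 CPM in the young library, and Flt1 had 154 and 169 CPM, against 203 CPM. Neither difference passed, with log2 changes of -0.34 ± 0.41 for Kdr (adjusted p = 0.85, edgeR) and -0.33 ± 0.24 for Flt1 (adjusted p = 0.713, edgeR). Both signs turned when all merged regions were counted, to 0.69 for Kdr and 0.78 for Flt1. In that setting a region adds no counts in a library without a peak there, and both genes had regions with peaks in old libraries only.

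Of the junction and surface genes, Pecam1 had 189 and 153 CPM in the old libraries, against 182 CPM in the young library, and the groups overlapped. Cdh5 had 25.3 and 34.7 CPM in the old libraries, against 21.0 CPM in the young library, on 51, 27 and 12 counts. Both common regions of Cdh5 lie outside the gene body, so this comparison covers no peak inside the gene. That at chr8:104098872-104099754 overlaps the long noncoding RNA gene Gm29682. Plvap had 87.0 and 53.9 CPM, against 50.7 CPM in the young library, and its log2 change of 0.53 was 0.09 without old replicate 1. This Plvap sum joins a region beside the gene that lies in Gtpbp3 (log2 change 1.20) and a region inside Plvap (-0.95). The transcription factor gene Erg had 108 and 64.2 CPM in the old libraries, against 91.0 CPM in the young library. None of these 4 differences passed, with adjusted p from 0.723 to 0.993 (edgeR). Over the 9 tested members the median log2 change was 0.18, and over all tested genes it was 0.01.

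In the tubule classes no member passed. Over 9 members tested in proximal tubule-like cells the log2 changes ran from -0.54 (Erg) to 0.43 (Plvap). None was called by edgeR or DESeq2, and 0 had an unadjusted p under 0.05 with either tool, against 0.677% of all genes called by edgeR. Eng had 1.91 and 2.03 CPM in the old libraries, against 1.67 CPM in the young library, a log2 change of 0.25 ± 0.84. In loop to collecting duct-like cells 6 members could be tested, from -1.23 (Cdh5) to 0.95 (Plvap), with 0 called by edgeR or DESeq2 and 0 under an unadjusted p of 0.05, against 0.153% of all genes called by edgeR. Eng had 7.13 and 6.41 CPM there in the old libraries, against 6.55 CPM in the young library.

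The old-to-young difference of Eng was set against that in the tubule classes by a direct test, chosen after the data had been seen, with the library as a term. At the level of the gene it was larger in endothelium-like than in proximal tubule-like cells by 2.43 ± 0.65 (log2, SE), which missed the threshold (adjusted p = 0.0507, edgeR), with 0.387% of all genes called. For the common region of Eng the same difference was 2.54 ± 0.60 and passed (adjusted p = 0.0307, edgeR), with 0.0953% of all regions called. Against loop to collecting duct-like cells the gene difference was 2.67 ± 0.80 (adjusted p = 0.161, edgeR) and the region difference 2.79 ± 0.79 (adjusted p = 0.206, edgeR), with 0.148% of genes and 0.0505% of regions called. Tie1 had larger differences there, 5.35 ± 1.59 for the gene (adjusted p = 0.158, edgeR) and 5.40 ± 1.48 for its region (adjusted p = 0.195, edgeR), on 0, 0 and 6 counts in loop to collecting duct-like cells of old replicate 1, old replicate 2 and young. No other member passed in either test.

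**Figure D3:**
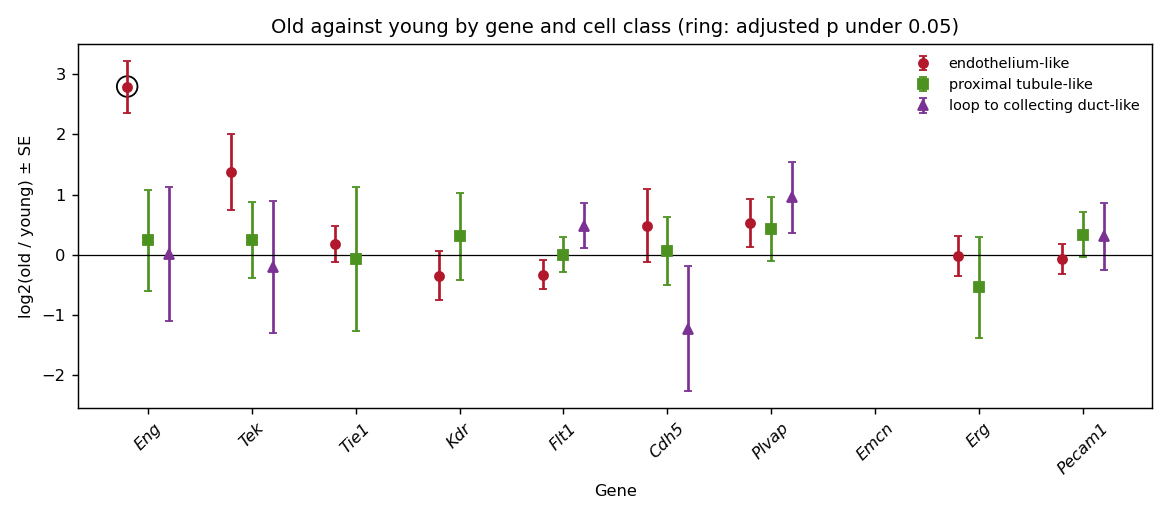
Log2 change of old over young for each gene, with its SE, in endothelium-like, proximal tubule-like and loop to collecting duct-like cells, and a ring where the adjusted p is under 0.05 (edgeR). The Eng point of endothelium-like cells, at 2.80, is the ringed one, and the tubule points of Eng lie at 0.25 and 0.02. Genes without a point were not tested in that class.

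The tested Eng signal came from 1 common region, inside the gene and centred 15089 bp downstream of the start site, at chr2:32661150-32662219 (mm10). The annotation used here gives gene intervals without exons, so its place within the gene is not resolved further, and no start site of another gene lies in it. In endothelium-like cells it held 160 fragments in old replicate 1 (95% exact Poisson interval 136 to 187) and 43 in old replicate 2 (31.1 to 57.9), against 6 in the young library (2.2 to 13.1). Its log2 change was 2.79 ± 0.43 (SE), with an adjusted p of 1.17e-06 among 23746 regions, of which 0.699% were called and 0.564% were higher in old (edgeR). DESeq2 gave 2.77 with an adjusted p of 0.13 and called 0 regions in this class, with 717 under an unadjusted p of 0.05.

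The share of endothelium-like cells with a count in the Eng region was 47.6% of 189 cells in old replicate 1 (95% Clopper-Pearson interval 40.3% to 55.0%) and 27.2% of 103 cells in old replicate 2 (18.9% to 36.8%), against 10.0% of 50 cells in the young library (3.33% to 21.8%). The young interval lay below that of old replicate 1 and overlapped that of old replicate 2. With each cell thinned to 3000 counts, the shares were 27.6% of 174 cells and 19.0% of 84 cells in the old libraries, against 2.63% of 38 cells, which is 1 cell, in the young library. Proximal tubule-like cells, thinned alike, had counts there in 1.35% and 0.306% of cells in the old libraries and 0.218% in the young library. No cell had more than 5 fragments in the region. These intervals cover counting error only.

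The peaks that made up the Eng region did not share their edges. The peak of old replicate 1 was chr2:32661298-32662219 and that of old replicate 2 chr2:32661278-32662164, while the young peak was chr2:32661150-32661993. The young peak thus covered 75.5% of the peak of old replicate 1 and 80.7% of that of old replicate 2, and events past its end were not counted in the young library. Of the young counts in it, 132 were from proximal tubule-like cells, 13 from loop to collecting duct-like cells and 11 from endothelium-like cells. In old replicate 1, 312 counts were from endothelium-like cells and 9 from proximal tubule-like cells. The part of these edges in the difference was not tested.

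**Figure D4:**
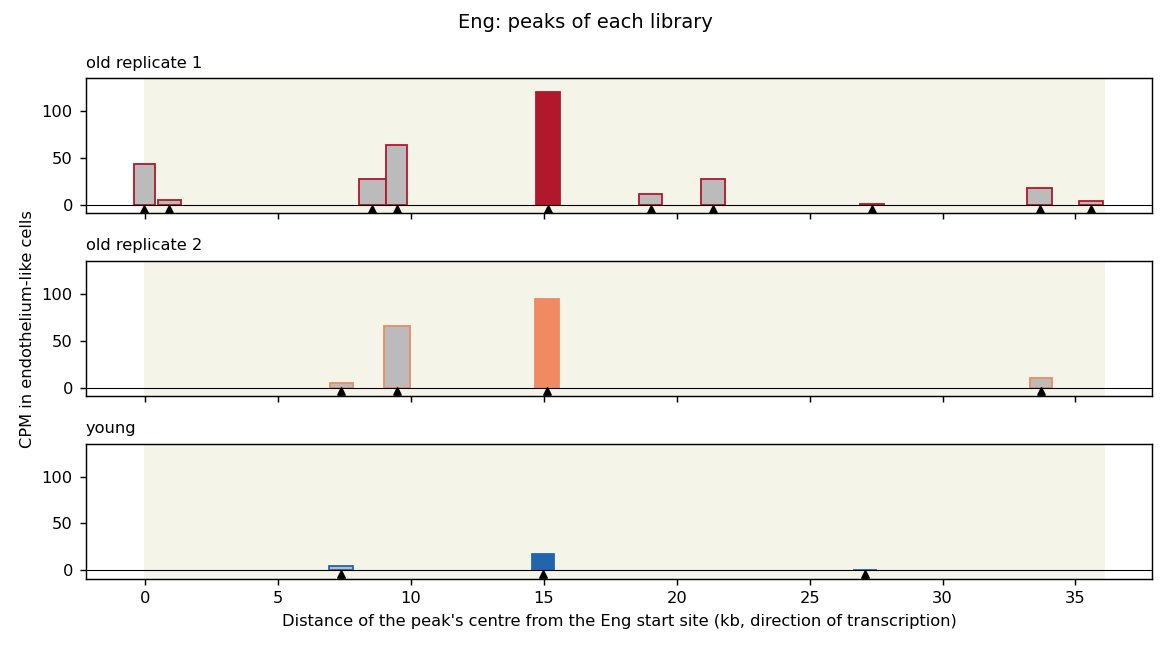
Peaks of each library at Eng by the distance of their centre from the start site in kb (arrowheads), with bar height the CPM in endothelium-like cells, bar width the peak's length, and the gene shaded. Filled bars mark the region with a peak in all libraries, at 121 and 94.5 CPM in the old libraries and 17.3 CPM in the young library, and grey bars mark peaks at other places.

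At 2 other places Eng had a young peak. The one at 7.4 kb held 2 fragments in old replicate 2 (4.55 CPM) and 2 in the young library (4.71 CPM), and old replicate 1 had no peak there. The other, at about 27.3 kb, held 1 fragment (0.772 CPM) in old replicate 1, against 0 in young cells. The remaining Eng peaks had no young counterpart, so no young value exists there. A second region inside the gene, chr2:32654620-32656541, had a peak in both old libraries and none in the young one. In it, the peak at 9.5 kb held 83 fragments (63.7 CPM) in old replicate 1 and 29 fragments (66.0 CPM) in old replicate 2. The region at 33.7 kb, next to the Fpgs gene, held 25 and 5 fragments in the old libraries. The start-site peak was called in old replicate 1 alone, with 57 fragments of endothelium-like cells (44.0 CPM) and 96 of the more numerous macrophage or dendritic cell-like cells (2.88 CPM). The peak at 35.6 kb of the same library had 6 and 226 fragments of these classes (4.25 and 7.4 CPM). In all, Eng had 10 peaks with 431 fragments of endothelium-like cells in old replicate 1 and 4 peaks with 79 fragments in old replicate 2, against 3 peaks with 8 fragments in the young library. The common region held 37.1%, 54.4% and 75.0% of these fragments, and the young fragments outside it numbered 2.

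Peaks present in both old libraries and absent from the young one were found at 7 of the 10 genes. They made up 19 of the 137 regions (13.9%), against 2.44% of all 250005 regions. Of the 19, 11 had at least 20 CPM in endothelium-like cells of both old libraries, and none had more than 2.55 CPM in proximal tubule-like cells. At Tek, the region 7.3 kb downstream of the start site had 57.9 and 95.6 CPM in old replicates 1 and 2, and the region at 90.9 kb had 68.4 and 67.2 CPM. At Cdh5, the region chr8:104121545-104122472 had 66.0 and 93.4 CPM, and the one over the lower edge of the gene, chr8:104101126-104102102, had 34.8 and 47.8 CPM. Kdr had such regions at 16.2 kb (54.1 and 59.2 CPM) and 3.7 kb (22.4 and 50.1 CPM), and Flt1 had 1 at 95.2 kb (53.3 and 62.6 CPM). Erg had 1 at 147.4 kb (42.5 and 78.6 CPM) and 1 at 127.2 kb (39.0 and 52.4 CPM). The Erg region at 127.2 kb lies within 1 kb of another annotated Erg start site than the one distances are measured from.

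Peaks were called by the authors on each library as a whole, and the 189, 103 and 50 endothelium-like cells were a small part of each. Fewer endothelial cells in a library and less open chromatin per cell therefore cannot be told apart for these missing peaks. Old replicate 1 alone had 49.6% of the members' regions to itself, against 31.2% of all regions. The young library alone had 9 of the 137, against 19872 of all 250005 regions. The total of peaks at the 10 genes was 119, 54 and 46.

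In common regions, where young values exist, 17 of the 23 could be tested in endothelium-like cells and Eng's was the 1 called. The start site of Tie1 had 137 and 108 CPM in the old libraries, against 110 CPM in the young library. That of Kdr had 51.7 and 46.2 CPM, against 63.0 CPM. That of Flt1 had 35.8 and 64.2 CPM in the old libraries, against 45.5 CPM, so the 3 receptors with a start-site peak in every library did not pass a test there. A Tek region inside the gene, chr4:94752182-94753224, had 18.4 and 30.8 CPM in the old libraries, against 7.0 CPM in the young library (log2 change 1.76 ± 0.83, unadjusted p = 0.0353, adjusted p = 0.46, edgeR). A region beside Plvap that lies in Gtpbp3, chr8:71496178-71497115, had 70.1 and 47.5 CPM in the old libraries, against 26.2 CPM in the young library (1.20 ± 0.50, unadjusted p = 0.0156, adjusted p = 0.337, edgeR). In proximal tubule-like cells 0 of the 23 regions were called by edgeR or DESeq2, with 1 under an unadjusted p of 0.05 by edgeR and 0 by DESeq2, against 0.622% of all regions called by edgeR. In loop to collecting duct-like cells 0 of 11 were called by either tool, with 0 under an unadjusted p of 0.05, against 0.0676% of all regions. At Erg, the endothelium-like cells had, inside the gene at chr16:95463412-95464430, 108 and 64.2 CPM in the old libraries, against 87.5 CPM. The common region inside Plvap, chr8:71507340-71508290, had 16.9 and 6.42 CPM in old endothelium-like cells, against 24.5 CPM in young ones. Its log2 change of -0.95 ± 0.73 did not pass.

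Single cells showed the genes together. Thinned to 3000 counts, endothelium-like cells had a count at a mean of 3.83 and 2.68 of the 10 genes in old replicates 1 and 2, against 1.5 in the young library. At least 3 genes were open in 75.3% and 53.6% of the old cells, against 23.7% of the young cells, and none in 4.6% and 13.1%, against 31.6%. These counts use each library's own peaks, so a gene with more peaks has more chances. Tek had 12, 6 and 3 peaks and Cdh5 11, 4 and 4 in old replicate 1, old replicate 2 and young. Over common regions, the log2 change of Tek in thinned cells was -0.016. Thinned proximal tubule-like cells had means of 0.269 and 0.207 in the old libraries and 0.206 in the young library. Tek was open in 47.7% and 44.0% of old cells, against 2.63% of young cells, and Cdh5 in 36.2% and 32.1%, against 5.26%. Pecam1 was open in 44.8% and 35.7% of old cells, against 31.6% of young cells. Plvap was open in 36.8% and 8.33% of old cells, against 21.1% of young cells. Thinned to 6000 counts instead, 88.9% and 79.1% of old cells had at least 3 genes open, against 45.2% of young cells, and 3.47% and 8.96% had none, against 12.9%. At that depth Plvap was open in 54.9% and 22.4% of old cells, against 19.4% of young cells, so the library with its lowest share depended on the depth. For Tek the shares were then 61.1% and 56.7% of old cells, against 6.45% of young cells, and for Cdh5 47.9% and 52.2%, against 12.9%.

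**Figure D5:**
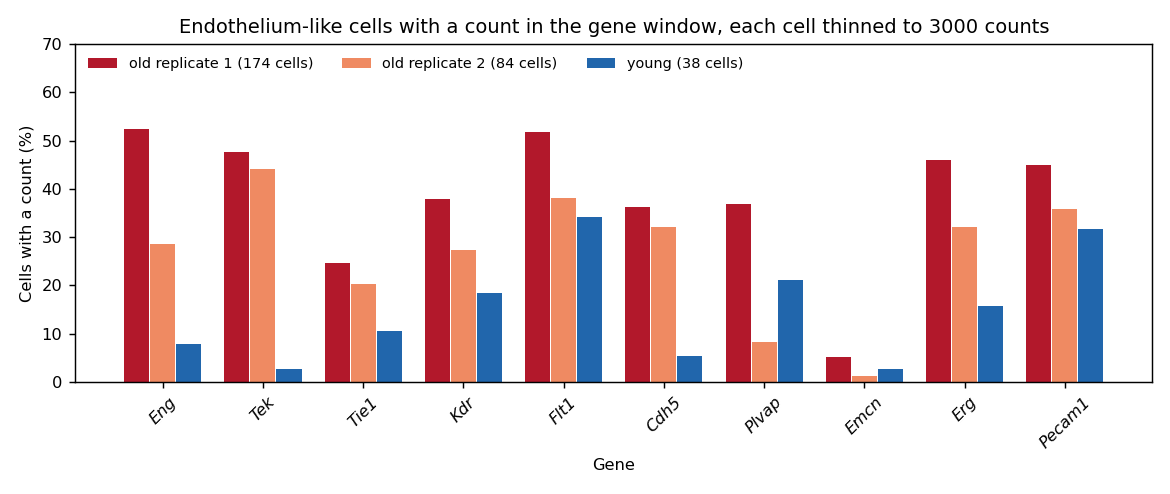
Percent of endothelium-like cells with at least 1 count in the window of each gene, every cell thinned to 3000 counts, in old replicate 1 (174 cells), old replicate 2 (84 cells) and young (38 cells). Bars are single libraries without error bars. Counts are in each library's own peaks, so a place without a peak adds none. Tek had 12, 6 and 3 peaks and Cdh5 11, 4 and 4 in old replicate 1, old replicate 2 and young. Tek and Cdh5 are lowest in the young library, at 2.63% and 5.26%, and Plvap is lowest in old replicate 2, at 8.33%, though at 6000 counts per cell it is lowest in the young library, at 19.4%.

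Levels of markers of other cells differed between libraries inside the endothelium-like cluster. The 18 proximal tubule markers summed to 164 and 184 CPM in common regions of old endothelium-like cells, against 348 CPM of young ones, while proximal tubule-like cells had 1400.5 to 1744 CPM. Of the 18, 9 and 8 were at 0 in the old libraries and 6 in the young library. The 16 endothelial markers outside the list summed to 917 and 765 CPM in old cells, against 605 CPM in young cells. Macrophage or dendritic cell markers summed to 298 and 243 CPM, against 262 CPM, and Ptprc, which marks leukocytes, was at 8.94 and 12.8 CPM, against 14.0 CPM. Lyve1, a marker of lymphatic vessels, had 2.32 CPM in own peaks of old replicate 1 and 0 in those of old replicate 2 and the young library. Prox1, another lymphatic marker, had 8.11 and 20.5 CPM in own peaks of the old libraries, against 25.1 CPM in those of the young library, and the 6 lymphatic markers summed to 119 and 148 CPM, against 103 CPM, in common regions. The 10 podocyte markers had the largest sum outside the endothelial set, 879 and 909 CPM, against 611 CPM, and proximal tubule-like cells had 744 and 715 CPM, against 664 CPM. In endothelium-like cells of old replicate 2 and the young library, the podocyte sum was above that of the 16 endothelial markers. The podocyte set includes Podxl (126 and 116 CPM, against 68.2 CPM), which is also on the capillary and lymphatic list below. These sums were not scaled to the length of the gene windows. Fibroblast or mesangium markers summed to 213 and 207 CPM, against 210 CPM. The part of these levels in the Eng difference was not tested.

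Genes of the same pathways were described from 7 lists with 95 entries. In endothelium-like cells 82 were tested, and 0 passed in either direction by edgeR or DESeq2. At an unadjusted p under 0.05 there were 12 (14.6%) by edgeR and 0 by DESeq2, against 9.39% and 2.32% of all genes. In proximal tubule-like cells 0 of 89 passed with either tool, with 3 (3.37%) under an unadjusted p of 0.05 by edgeR and 0 by DESeq2, against 4.91% and 2.99% of all genes. In loop to collecting duct-like cells 0 of 82 passed with either tool, with 3 (3.66%) by edgeR and 1 (1.22%) by DESeq2 under that p, against 4.16% and 1.29% of all genes. The values below, from endothelium-like cells, are those of the 2 highest and the 2 lowest log2 changes of a list, and none of them passed.

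In the list of Eng's own pathway, 16 genes were tested and the median log2 change was 0.23. Tgfbr2, the type II TGF-beta receptor, had 189 and 140 CPM in the old libraries, against 107 CPM in the young library (log2 change 0.65). Acvrl1, the type I receptor that signals with endoglin, had 107 and 89.9 CPM, against 71.7 CPM (0.48). The ligand gene Bmp6 had 32.8 and 50.1 CPM, against 64.7 CPM (-0.69), and Bmp4 had 28.3 and 21.8 CPM, against 42.0 CPM (-0.70). The smallest adjusted p of this list was 0.383 (edgeR).

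For the VEGF receptors, the lymphatic receptor gene Flt4 had 99.9 and 119 CPM in the old libraries, against 68.2 CPM in the young library (log2 change 0.67), and the co-receptor gene Nrp2 had 112 and 118 CPM, against 92.7 CPM (0.31). The ligand genes Vegfc and Vegfd had log2 changes of -0.69 and -1.17. For the angiopoietin receptors, Angpt4, a ligand gene, had 15.4 CPM in each old library, against 3.5 CPM in the young library on 2 counts (2.11 ± 1.27). Ptprb, the phosphatase that acts on Tek, had 71.1 and 69.3 CPM, against 50.7 CPM (0.48). Angpt1, the activating ligand gene, and Svep1 had log2 changes of -0.26 and -0.94.

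Among endothelial transcription factors the median log2 change of 19 tested genes was 0.01. Tal1 had 40.7 and 20.5 CPM in the old libraries, against 8.75 CPM in the young library (log2 change 1.87 ± 0.72, adjusted p = 0.3, edgeR), and Foxc1 had a log2 change of 0.57. Fli1, an ETS factor like Erg, had 15, 0 and 8 counts in old replicate 1, old replicate 2 and young, too few to order, and Lmo2 had a log2 change of -0.45. Of the junction genes, Jam2 had 58.1 and 62.9 CPM in the old libraries, against 26.2 CPM in the young library (1.20), Vcam1 had 1.01, and Selp and F11r had -0.43 and -0.38. The Notch and arterial list ran from Jag1 (-0.56) and Hey2 (-0.34) to Ephb4 (0.85) and Efnb2 (0.93). Of the capillary and lymphatic genes, Prox1 and Procr had log2 changes of -0.83 and -0.50, Podxl had 0.84 and Sema3g 1.10.

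Genes with the profile most like the mean of the 9 members measurable in common regions were sought over 15 sums of a named class and library with at least 20 cells. The highest Pearson correlations of log2(CPM + 5) were all close together, from 0.984 to 0.978 over the 10 genes named by this rule. The sums share cells of 3 libraries, so these are descriptions. Thbs2, which encodes a matricellular thrombospondin, had 52.2 and 50.1 CPM in old endothelium-like cells, against 47.2 CPM in young ones, and at most 3.02 CPM elsewhere. Tm4sf1, a surface protein gene known from endothelium, had 172 CPM in each old library, against 112 CPM in the young library. The microRNA gene Mir7080 was on the list, and the other genes were the long noncoding RNA genes C030018K13Rik, Gm30563, Gm13816, Gm34184, Gm30018, Gm30561 and D830026I12Rik. Of the members themselves, Tie1 lay closest to the mean (r = 0.984), followed by Erg (0.976) and Eng (0.928), and Cdh5 lay farthest (0.689). Each member is part of that mean, so its r is raised by its own values and cannot be set against those of the other genes.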

How the data were processed

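Per the submitters' processing notes, the authors used Cell Ranger ATAC 2.1.0 and build mm10. The deposited values are raw counts of cut sites for each barcode in the peaks of its own library, and peaks were called separately per library. From 89.5% to 94.3% of values were even, since a fragment adds a count at either end, so intervals rest on fragments, taken as the count divided by 2 and rounded up. Total counts per library were 96093221 (old replicate 1), 64729297 (old replicate 2) and 110871506 (young).

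Peaks overlapping by at least 1 bp were merged (bedtools 2.31.1), and 72317 regions had a peak in every library. Barcodes with at least 1000 counts were kept, and simulated doublets (50 neighbours, 0.8% per 1000 barcodes) were used to remove 248, 133 and 135 barcodes of old replicate 1, old replicate 2 and young. Common regions, if open in 1% of cells or more and without those within 50 kb of the 10 genes, were reduced by latent semantic indexing to 30 components and clustered (20 neighbours, Leiden resolution 1, seed 7; Python 3.11.15, scikit-learn 1.9.0, igraph 0.11.9, leidenalg 0.10.2). Clusters were named from 17 marker sets by raised markers (log2 fold of at least 1 and at least 10 CPM) and a margin of 0.25 over the next set. After the clusters had been seen, naming was moved from common to all merged regions, and Aqp1 was no longer counted against a proximal tubule name. Before this change several clusters, proximal tubule, T cell and B cell ones among them, had no name.

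Counts were summed per class, library and gene window over common regions and tested with edgeR 4.0.16 (TMM, filterByExpr, quasi-likelihood; R 4.3.3). DESeq2 1.42.0 was an alternative, and the effect of all alternatives is given in the closing section. On simulated counts of endothelium-like cells, 6 of 100 genes changed by a fold of 2 and 87 of 100 changed by a fold of 4 were recovered. The changed genes were drawn only from those with higher counts, and a common dispersion was used for all genes. Recovery was therefore not measured for members with fewer counts, such as Tek and Cdh5. Named genes were all members, the 2 highest and 2 lowest log2 changes of each pathway list where none was called, and the 10 most alike genes. Members and lists were chosen with earlier results of these data known. Exons are not in the annotation used here.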

Additional observations from a re-analysis of the deposited data

Results flagged for a closer look

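The old-to-young difference of the Eng region 15089 bp from the start site was larger in endothelium-like cells than in proximal tubule-like cells by 2.54 ± 0.60 on the log2 scale, which passed a direct test of the difference between the classes (adjusted p = 0.0307, edgeR). Counts were higher in 2 of 2 old libraries than in the young library in endothelium-like cells (155 and 107 CPM, against 19.2 CPM). In proximal tubule-like cells the region had 1.91 and 2.03 CPM in the old libraries, against 1.67 CPM in the young library. Summed over the gene, the same difference was 2.43 ± 0.65 and missed the threshold (adjusted p = 0.0507, edgeR). Against loop to collecting duct-like cells the region difference was 2.79 ± 0.79 and missed it too (adjusted p = 0.206, edgeR). The direct test was chosen after the data had been seen.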

How the results depend on the processing

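Eng in endothelium-like cells stayed higher in old under all 13 alternatives that gave a value, between 2.37 and 3.83 on the log2 scale, and past the threshold in 9 of the 11 that had a test (adjusted p from 1.33e-07 to 0.151). Its value was 2.37 without old replicate 1 and 2.90 without old replicate 2, with no test for 1 library against 1. Start sites alone gave none, because no common region of Eng lies there. Some alternatives nearly repeat the main test of Eng. Leiden resolution 2 gave the same 189, 103 and 50 endothelium-like cells and the same value. Clusters from all common regions gave 189, 104 and 50 cells. Leaving out regions at other genes' start sites kept the Eng region. No paired analysis was possible because the young group has 1 library.

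Counts of called genes moved most. In endothelium-like cells 57 genes were called, against 30 without a filter, 3 with DESeq2, 0 with all merged regions, 3 with start sites alone, 13 with fragments and 0 with thinned cells. Regions there numbered 166, against 19 with RLE size factors, 81 without a filter, 0 with DESeq2 (717 under an unadjusted p of 0.05), 49 with fragments and 0 with thinned cells. Proximal tubule-like genes numbered 173, against 75 with DESeq2, 0 with all merged regions, 30 with start sites alone and 100 with thinned cells, and regions 450, against 196 with DESeq2, 728 with fragments, 183 with at least 3000 counts per cell and 136 with thinned cells. Loop to collecting duct-like genes numbered 35, against 1 with DESeq2, 0 with all merged regions, 15 without regions at other genes' start sites and 0 with thinned cells, and regions 33, against 0 with DESeq2, 10 with at least 3000 counts per cell and 1 with thinned cells. The cause was not tested.

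Log2 changes of members that did not pass turned sign as follows in endothelium-like cells. With all merged regions, where a region adds no counts in a library without a peak there, Kdr was 0.69, Flt1 0.78, Erg 1.59 and Pecam1 0.57. With thinned cells Tek was -0.016 and Kdr 0.059, and with start sites alone Flt1 was 0.050. Erg was 0.042 without a filter, 0.0031 without regions at other genes' start sites, 0.025 with fragments and 0.0016 without doublet removal. Leaving out 1 old library gave -0.025 to 0.311 for Tie1, -0.485 to 0.253 for Erg and -0.243 to 0.063 for Pecam1, and -0.043 to 0.105 for Eng in loop to collecting duct-like cells. In proximal tubule-like cells thinning gave -0.31 for Eng and -0.11 for Plvap, and in loop to collecting duct-like cells Eng was -0.0056 with all merged regions.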

Other observations

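The clusters without a name also held some signal at the members. In old replicate 1, 166 cells without a name had 114 CPM at Erg and 0 CPM at Cdh5, Emcn, Tek and Tie1. In the young library, 76 cells without a name had 76.3 CPM at Kdr and 65.9 CPM at Flt1, against 0 CPM at Cdh5, Tek and Tie1.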
